A study of Rattus norvegicus with 12 samples.

Results

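The axon-guidance genes of rat pancreatic islets described here are 65 genes of the 25888 gene symbols in the deposited count table, chosen by symbol: Eph receptors (13 genes), their ephrin ligands (8), semaphorins (20), plexins and neuropilins (10), Slits and Robos (6), and netrins with their Unc5 receptors (8). The symbol pattern left out Ephb4, and each gene was represented by its transcript with the highest mean count. The set was put together because Epha5 was higher in islets of growth-restricted rats at both ages, so the values of Epha5 in those comparisons are a description and carry no test. The study compared Sprague Dawley rats after intrauterine growth restriction (IUGR), produced by tying off both uterine arteries of the dam on embryonic day 18, with control rats whose litters were culled to 8 pups. Whether control dams had a sham operation is not given in the sources used here. Control and IUGR islets were each sampled in rats aged 2 weeks and in rats aged 10 weeks, with 3 libraries, described as biological replicates, in each of the 4 groups. All rats had free access to water and standard chow. The labels do not say whether a library pooled several animals, which sex the animals were, or whether replicates came from separate litters, so p-values measure the spread between these libraries.

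These families are best known for steering growing axons, and all of them are also active outside the nervous system. Ephrins sit in the membrane of one cell and bind Eph receptor tyrosine kinases on its neighbour, with signals passing into both cells; EphA receptors and ephrin-A ligands have been described in contacts between beta cells, where they tune insulin release. Secreted class 3 semaphorins act through neuropilins and plexins on nerves and blood vessels. Slits are secreted ligands of Robo receptors, which mouse beta cells need for normal islet architecture, and netrins act through Dcc and Unc5 receptors.

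The libraries held between 30.4M and 64.2M counts and differed in exocrine RNA. A list of 32 acinar genes took 21.7% to 42.2% of counts in control and 4.37% to 9.37% in IUGR islets at 2 weeks, and 13.9% to 46.9% in control and 0.624% to 2.32% in IUGR islets at 10 weeks, with no overlap between control and IUGR at either age. Levels are therefore given as scaled counts-per-million (CPM below), in which the library size is multiplied by a factor computed by the trimmed mean of M-values, which limits the pull of the acinar genes. Of the marker lists for other cells, 9 of 14 tested mesenchymal and pericyte genes and 11 of 14 endothelial genes were lower in IUGR islets at 10 weeks and none was higher. Of all tested transcripts, 15.5% were lower and 12.4% higher. All markers found in the table for the 4 islet hormone cell types had counts, and 13 of 13 beta cell markers rose from 2 to 10 weeks in IUGR islets and 12 of 13 in controls. Of all tested transcripts, 27.3% rose with age in IUGR islets and 17.2% in controls. In bulk tissue, fewer cells of a type and less RNA per cell cannot be told apart. The part of these shifts in the results on guidance genes was not tested beyond a fit that held the acinar level as a covariate. Where that fit ended a 10-week call or moved a called 10-week value by over 1.5 times in fold, in either direction, its value is given.

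Of the 65 genes, 62 passed the filter on low counts. The other 3 were Epha6, with 0 counts in every library (a count of 0 allows up to 3 counts, between 0.0425 and 0.110 CPM depending on the library, for counting error only), and Epha10 and Efna3, which were at 0.0365 to 0.157 CPM and 0.0247 to 0.402 CPM. Comparisons were fitted across 20733 transcripts with edgeR's quasi-likelihood test and Benjamini-Hochberg adjustment over all of them. A gene is called where its adjusted p is under 0.05. Fold changes are on the log2 scale with their standard error.

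Epha5, a receptor of ephrin-A ligands, was lowest in young control islets, rose with age in both groups and was higher after growth restriction at both ages. Its levels were 0.572, 0.665 and 0.844 CPM in control and 2.17, 1.46 and 2.04 CPM in IUGR islets at 2 weeks, and 2.22, 2.87 and 2.99 CPM in control and 6.40, 7.70 and 7.61 CPM in IUGR islets at 10 weeks. Within each age every IUGR library lay above every control library, and the highest 2-week IUGR library (2.17 CPM) was just under the lowest 10-week control (2.22 CPM). The difference between IUGR and control, which chose the set, was 1.43 ± 0.21 at 2 weeks and 1.43 ± 0.20 at 10 weeks, and the change in that difference between the ages was -0.01 ± 0.29. The table lists 6 Epha5 transcripts, which share reads; their values in the fit ran from 1.35 to 1.44 at 2 weeks and from 1.41 to 1.48 at 10 weeks. The increase with age was not used in choosing the set. It was 1.94 ± 0.22 (adjusted p = 0.00022) in control islets and 1.94 ± 0.20 (adjusted p = 2.1e-05) in IUGR islets by edgeR's quasi-likelihood test, with no overlap between ages in either. Of the 2 markers of PP cells, Ppy, which encodes pancreatic polypeptide, was higher in IUGR islets at both ages, by 1.32 ± 0.30 (adjusted p = 0.047) and 1.48 ± 0.31 (adjusted p = 0.0068), and Pyy was not called. Their summed level was 205 to 390.4 CPM in control and 581 to 686 CPM in IUGR islets at 2 weeks, and 219 to 356 CPM in control and 549 to 794 CPM in IUGR islets at 10 weeks. With age, 1 of the 2 PP cell markers was called lower in each group and none higher. Of 13 beta cell markers, none was called between IUGR and control islets at 2 weeks. At 10 weeks 6 were higher and none lower (medians 0.31 and 0.68 at the 2 ages). With age, 12 of the 13 rose in controls and all 13 in IUGR islets. The part of PP and beta cells in the Epha5 values was not tested.

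Promoters of 51 of the 65 genes were matched by symbol in RefSeq (build GRCr8), as the 250 bases before the annotated start. They are shown for Epha5 and for the 3 genes that stand for the other main patterns: Robo2, higher in IUGR islets at 10 weeks and with age; Plxnc1, higher with age in both groups; and Epha3, which fell with age in both groups and was lower in IUGR islets at 10 weeks. The bases run 5′ to 3′ on the gene's strand and the capitals mark CpG, a C followed by a G. Epha5 lies at chr14:24007872-24008121 on the plus strand, Robo2 at chr11:26526413-26526662, Plxnc1 at chr7:31430606-31430855 and Epha3 at chr11:14920426-14920675, these 3 on the minus strand.
Epha5: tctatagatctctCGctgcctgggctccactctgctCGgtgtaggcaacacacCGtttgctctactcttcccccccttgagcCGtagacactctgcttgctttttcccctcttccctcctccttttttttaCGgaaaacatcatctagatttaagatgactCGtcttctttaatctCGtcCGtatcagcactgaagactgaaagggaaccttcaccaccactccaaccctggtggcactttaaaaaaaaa
Robo2: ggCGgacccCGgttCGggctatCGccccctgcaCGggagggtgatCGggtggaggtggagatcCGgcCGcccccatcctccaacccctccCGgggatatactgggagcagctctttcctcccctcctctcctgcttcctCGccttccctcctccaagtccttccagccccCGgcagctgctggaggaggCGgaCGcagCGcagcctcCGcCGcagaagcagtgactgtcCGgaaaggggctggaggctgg
Plxnc1: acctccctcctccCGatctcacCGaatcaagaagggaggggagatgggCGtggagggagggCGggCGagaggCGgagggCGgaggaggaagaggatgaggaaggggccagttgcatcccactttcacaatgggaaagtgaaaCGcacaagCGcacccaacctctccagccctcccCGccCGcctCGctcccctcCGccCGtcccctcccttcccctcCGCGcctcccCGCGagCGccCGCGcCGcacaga
Epha3: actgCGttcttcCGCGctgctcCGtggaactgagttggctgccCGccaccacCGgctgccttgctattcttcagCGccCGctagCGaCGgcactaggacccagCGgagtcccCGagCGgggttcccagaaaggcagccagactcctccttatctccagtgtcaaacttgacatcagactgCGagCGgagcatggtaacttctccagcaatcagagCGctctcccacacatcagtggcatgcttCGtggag
Epha5 had 8 CpG and 47.6% G and C, Robo2 had 17 CpG and 69.2%, Plxnc1 had 22 CpG and 68.8%, and Epha3 had 17 CpG and 60.4%. The median was 14 CpG over the 51 matched genes (range 0 to 43) and 5 CpG over the 33469 promoters of that table, of which 61.5% had as few as Epha5 or fewer. The GC box GGGCGG, searched on both strands and holding a CpG itself, occurred in 29 of 51 guidance promoters (56.9%) against 30.5% of all promoters; Plxnc1 had 4 matches, Robo2 had 1, and these letters were not found in the windows of Epha5 or Epha3. A match is a description of the letters only.

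At 2 weeks, none of the 61 guidance genes other than Epha5 was called between IUGR and control islets by edgeR's quasi-likelihood test, where 3.88% of all 20733 transcripts were called (1.66% higher, 2.21% lower). At an unadjusted p under 0.05 there were 17 (27.9%, against 28.6% of all transcripts), and DESeq2 called 7 of 60 (4 higher, 3 lower; 11.7% against 15.9%). Without the third 2-week control edgeR called 4 (1 higher, 3 lower; 6.56% against 11.2%), without the second 10-week control 3 (all lower; 4.92% against 8.59%) and without the first 10-week control 1 (1.64% against 4.61%). The guidance share was under that of all transcripts in each of these counts, but not under every setting. In a fit of the 6 libraries of this age alone, edgeR called no transcript. Of the guidance genes, 45.9% then had an unadjusted p under 0.05, against 30.8% of all transcripts. The called share was also the higher one in the fit without both 10-week controls of high acinar share, which keeps only the second 10-week control. In the 4-group fit, 41 of the 61 genes lay above 0, with a median log2 fold change of 0.23 against 0.05 over all transcripts. The groups did not overlap for 27 of 61 genes, 21 of them higher in IUGR, against 38.7% of all transcripts. Among the EphA receptors, Epha2 was at 0.81 ± 0.25 (adjusted p = 0.082) and Epha3 at 0.51 ± 0.22 (adjusted p = 0.16). The largest differences below 0 were those of the netrin receptor Unc5d at -1.89 ± 0.49 (adjusted p = 0.054) and of netrin-1 (Ntn1) at -1.14 ± 0.30 (adjusted p = 0.056). None of these passed the threshold.

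At 10 weeks, growth-restricted islets had lower levels of many guidance genes. Of the 61 genes other than Epha5, 22 were lower, 2 were higher and 37 were not called. Across all transcripts 27.9% were called (12.4% higher, 15.5% lower) against 39.3% of the guidance genes. The median log2 fold change was -0.64 over the guidance genes and -0.01 over all transcripts, and the groups did not overlap for 25 of 61 genes (21 lower in IUGR, 4 higher) against 40.2% of all transcripts. Since the set was chosen on this contrast in Epha5, nothing more is read from these counts. Of the 24 calls, 9 held under all 22 alternative settings and left-out libraries: Epha2, Epha3, Ntn1, Plxnb3, Plxnd1, Sema3g, Sema6a, Slit2 and Slit3. Leaving out the third 10-week control left 13 calls (21.3%, where the share of all transcripts fell to 14.1%), and a fit of the 6 libraries of this age alone left 15 of 58 (25.9%, against 18.1%).

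**Figure D1:**
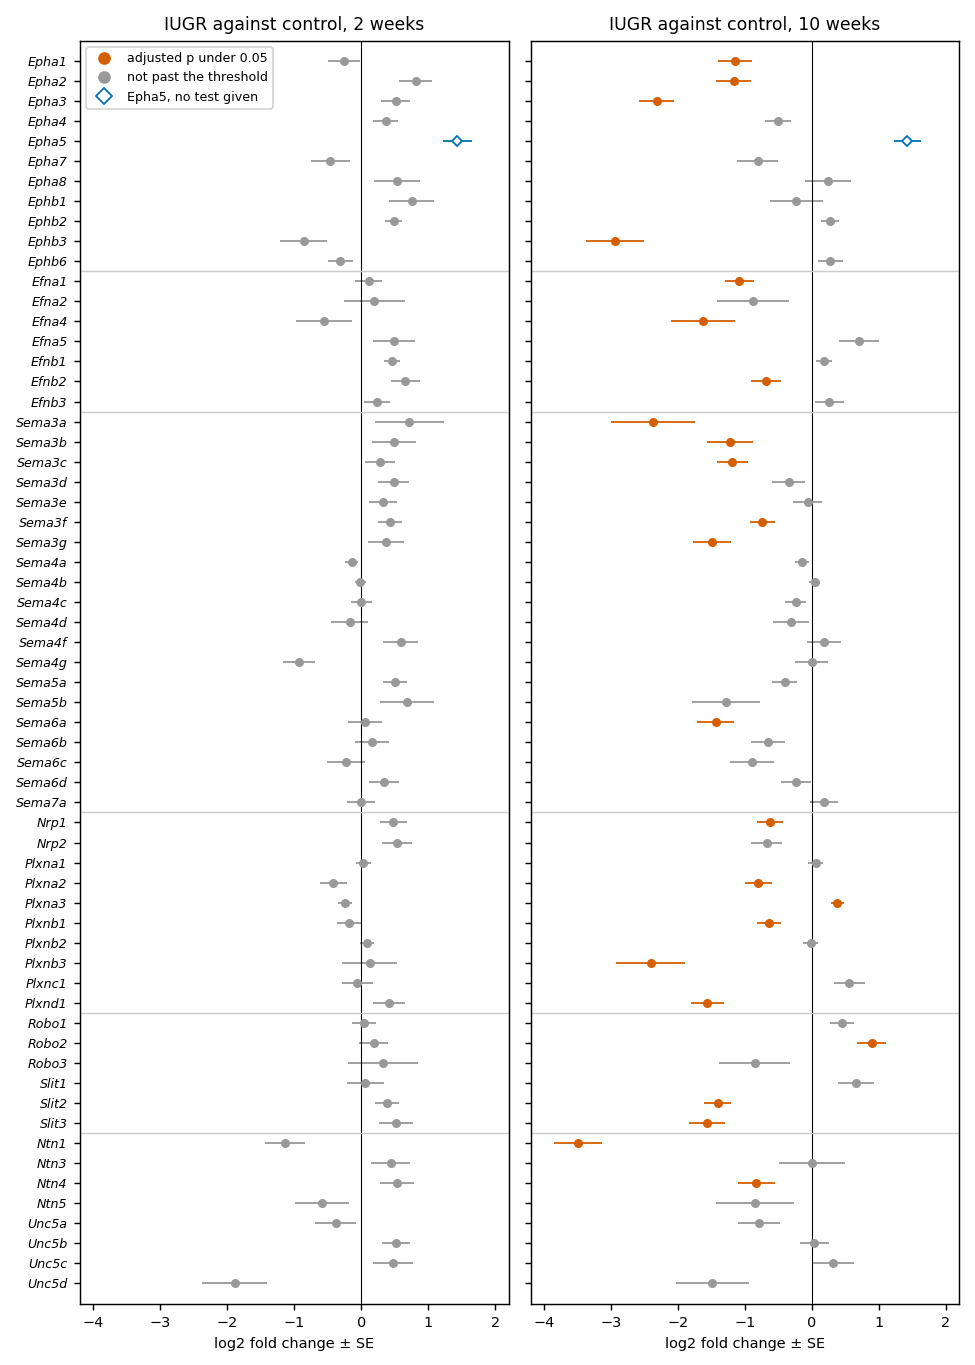
Log2 fold change ± SE between IUGR and control islets at 2 weeks (left) and 10 weeks (right) for the 62 tested guidance genes, grouped by family with grey lines between families. Orange points passed an adjusted p of 0.05 and grey points did not; the open diamond is Epha5, which sits at 1.43 at both ages, while most coloured points at 10 weeks lie below 0.

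The receptors that bind ephrin-A ligands did not move as one group. Of the 6 tested EphA receptors other than Epha5, 3 were lower in IUGR islets at 10 weeks and none was higher. Over all transcripts, 15.5% were lower and 12.4% higher. Epha3 measured 18.9, 25.9 and 21.1 CPM in control and 29.7, 31.5 and 32.8 CPM in IUGR islets at 2 weeks, and 3.71, 8.20 and 6.46 CPM in control and 1.39, 1.25 and 1.06 CPM in IUGR islets at 10 weeks. It was the highest in 2-week IUGR libraries and the lowest in 10-week IUGR libraries, with no overlap between control and IUGR at 10 weeks, where the difference was -2.32 ± 0.26 (adjusted p = 0.00076). Epha2 measured 9.50, 17.8 and 18.0 CPM in control and 25.8, 29.6 and 24.2 CPM in IUGR islets at 2 weeks, and 9.03, 13.4 and 13.2 CPM in control and 5.29, 3.96 and 6.60 CPM in IUGR islets at 10 weeks. Its 10-week IUGR libraries lay under every other library, with a difference of -1.17 ± 0.26 (adjusted p = 0.0097). Epha1 was at -1.14 ± 0.25 (adjusted p = 0.0089) at 10 weeks, and at -1.81 ± 0.52 (adjusted p = 0.055), larger but no longer called, with the acinar covariate. Epha4 at -0.51 ± 0.19 (adjusted p = 0.07) and Epha8 at 0.24 ± 0.34 (adjusted p = 0.64) were not called. Epha7 was at -0.81 ± 0.31 (adjusted p = 0.069), and at 1.34 ± 0.35 (adjusted p = 0.041) with the acinar level as a covariate, a change of direction.

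Of the ephrin-A ligands tested, Efna5, a ligand of Epha5, measured 0.343, 0.508 and 0.549 CPM in control and 0.454, 0.869 and 0.668 CPM in IUGR islets at 2 weeks, and 0.760, 0.846 and 0.475 CPM in control and 1.17, 1.05 and 1.21 CPM in IUGR islets at 10 weeks. Its 10-week IUGR libraries lay above all others, with a difference from control of 0.70 ± 0.31 (adjusted p = 0.11) at that age that was not called. Efna1 measured 7.81, 9.31 and 7.92 CPM in control and 8.31, 8.99 and 9.70 CPM in IUGR islets at 2 weeks, and 5.10, 6.70 and 8.62 CPM in control and 3.90, 2.37 and 3.36 CPM in IUGR islets at 10 weeks. The 10-week IUGR libraries were the lowest and did not overlap the controls, at -1.08 ± 0.21 (adjusted p = 0.0054); with the acinar covariate the value was about the same, its error was wider and the call was lost (-1.13 ± 0.51 (adjusted p = 0.17)). Efna4 was 0.148 to 0.807 CPM in 10-week IUGR islets and 1.01 to 1.79 CPM in controls, at -1.62 ± 0.48 (adjusted p = 0.028); with the acinar covariate it was at -0.38 ± 0.96 (adjusted p = 0.82). Its call was lost under 7 of 22 alternatives, among them leaving out the second or the third 10-week control or the second or the third 10-week IUGR library, and leaving out 1 library gave values from -2.36 (without the first 10-week IUGR library) to -1.20 (without the third). Efna2 was at -0.88 ± 0.54 (adjusted p = 0.24) and not called.

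**Figure D2:**
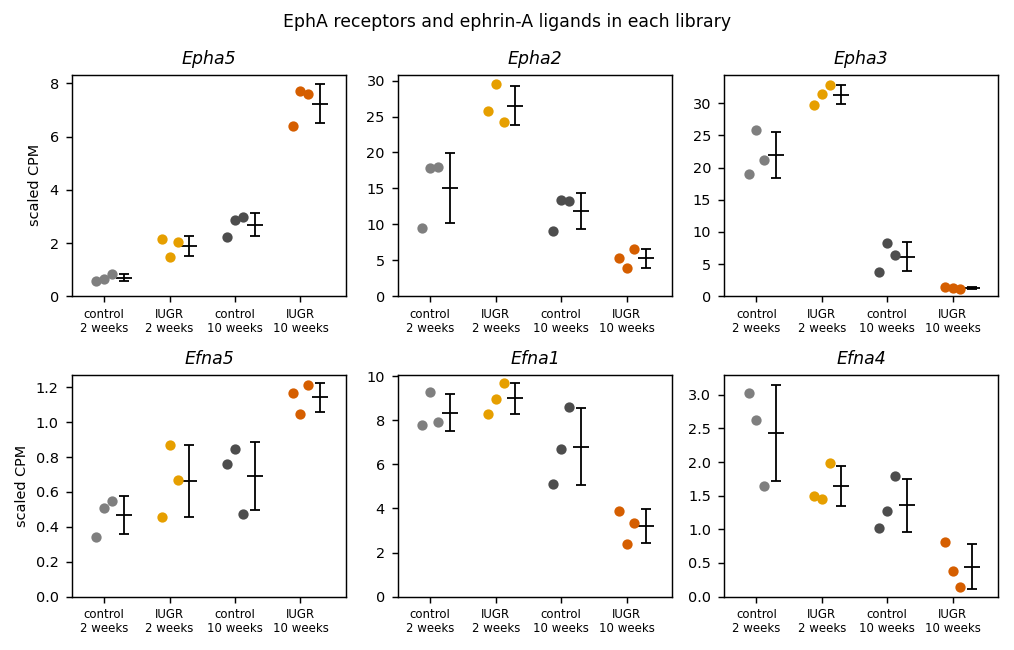
Scaled CPM in each of the 12 libraries for 3 EphA receptors (top) and 3 ephrin-A ligands (bottom); dots are libraries and the black bar is the group mean ± SD (n = 3). The y axes start at 0 and differ between genes; Epha5 and Efna5 are highest in 10-week IUGR islets, where Epha2, Epha3, Efna1 and Efna4 are lowest.

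Among the EphB receptors and ephrin-B ligands, Ephb3 and Efnb2 were lower in IUGR islets at 10 weeks. Ephb3 was 3.41 to 7.74 CPM in 10-week controls and 0.519 to 1.25 CPM in 10-week IUGR islets, at -2.95 ± 0.43 (adjusted p = 0.0018). Holding the acinar level as a covariate moved it to -0.59 ± 0.59 (adjusted p = 0.53). Leaving out both 10-week controls of high acinar share, which keeps only the second 10-week control, moved it to -2.12. Efnb2, a ligand known from arterial vessels, was at -0.68 ± 0.22 (adjusted p = 0.041), and its call was lost under 9 of 22 alternatives, among them leaving out any 2-week IUGR library, the second or the third 10-week control, or the first or the second 10-week IUGR library. With the acinar covariate it was larger, at -1.76 ± 0.42 (adjusted p = 0.033). Efnb1, which drew the most counts of the ephrins, was 12.5 to 15.5 CPM in controls and 13.8 to 16.8 CPM in IUGR islets at 10 weeks; these groups overlapped and it was not called.

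Secreted class 3 semaphorins were lower in 10-week IUGR islets in 5 of 7 cases and higher in none. Over all transcripts, 15.5% were lower and 12.4% higher. Sema3g, known from endothelium, measured 10.6, 18.5 and 13.8 CPM in control and 17.3, 20.9 and 17.4 CPM in IUGR islets at 2 weeks, and 9.25, 18.2 and 18.8 CPM in control and 4.23, 6.501 and 5.68 CPM in IUGR islets at 10 weeks. The 10-week IUGR libraries lay under all others, with a difference of -1.495 ± 0.28 (adjusted p = 0.0048). Sema3a, the founding collapsing factor for axons, measured 1.69, 3.13 and 2.86 CPM in control and 4.55, 5.12 and 3.01 CPM in IUGR islets at 2 weeks, and 0.919, 0.682 and 3.72 CPM in control and 0.251, 0.299 and 0.445 CPM in IUGR islets at 10 weeks. The third 10-week control lay within the range of the 2-week IUGR libraries, and the other 10-week controls lay under every 2-week library. The difference was -2.37 ± 0.62 (adjusted p = 0.018), and without that library it was -1.24 ± 0.39 (adjusted p = 0.060). The call was also lost without the first or the second 10-week IUGR library, and the acinar covariate gave -1.17 ± 1.60 (adjusted p = 0.65).

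Sema3c measured 49.1, 42.2 and 48.3 CPM in control and 58.5, 52.9 and 57.5 CPM in IUGR islets at 2 weeks, and 27.5, 18.5 and 38.0 CPM in control and 14.6, 13.0 and 9.29 CPM in IUGR islets at 10 weeks. The 10-week IUGR libraries were lowest, at -1.19 ± 0.23 (adjusted p = 0.0053), but the fit with the acinar covariate gave 0.25 ± 0.34 (adjusted p = 0.64). The fit without both 10-week controls of high acinar share, which keeps only the second 10-week control, gave -0.57. Sema3b was at -1.23 ± 0.35 (adjusted p = 0.025). The groups overlapped in 1 library, and the call was lost under 6 of 22 alternatives, among them leaving out the second or the third 10-week control or the second or the third 10-week IUGR library. Of the membrane-bound semaphorins, Sema6a, a ligand of A-type plexins, was lower at -1.44 ± 0.28 (adjusted p = 0.005). It was 5.23 to 10.4 CPM in 10-week controls and 2.37 to 3.59 CPM in 10-week IUGR islets, which did not overlap. Sema5a and Sema6d, which with Sema3c drew the most counts of the semaphorins, were at -0.41 ± 0.19 (adjusted p = 0.12) and -0.24 ± 0.22 (adjusted p = 0.46).

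Semaphorin receptors moved in both directions. Plexin D1 (Plxnd1), the receptor of Sema3e on blood vessels, measured 79.9, 116 and 94.4 CPM in control and 127, 142 and 117 CPM in IUGR islets at 2 weeks, and 55.8, 105 and 74.4 CPM in control and 24.4, 21.0 and 34.1 CPM in IUGR islets at 10 weeks. All 10-week IUGR libraries lay below every other library, with a difference from control of -1.56 ± 0.24 (adjusted p = 0.0022). Plexin B3 (Plxnb3), a receptor of Sema5a, was 0.657 to 2.12 CPM in 10-week controls and 0.149 to 0.278 CPM in IUGR islets, at -2.41 ± 0.51 (adjusted p = 0.0078). It stayed called under every alternative run, but its size moved, to -1.71 without the second 10-week control, -3.15 without both controls of high acinar share and -5.12 with the acinar covariate. Neuropilin-1 (Nrp1), a receptor of class 3 semaphorins and of vascular growth factor, measured 71.7, 106 and 105 CPM in control and 127, 144 and 122 CPM in IUGR islets at 2 weeks, and 64.8, 104 and 102 CPM in control and 61.3, 50.7 and 62.9 CPM in IUGR islets at 10 weeks. The 10-week IUGR libraries lay just below the lowest control, at -0.63 ± 0.20 (adjusted p = 0.035); its call was lost under 7 of 22 alternatives, among them leaving out the second or the third 10-week control or any 10-week IUGR library. Plexin A3 (Plxna3) was the semaphorin receptor that was higher, with 15.8 to 18.8 CPM in controls and 20.5 to 25.1 CPM in IUGR islets at 10 weeks, at 0.38 ± 0.10 (adjusted p = 0.019), a call lost under 5 of 22 alternatives. These were the acinar covariate, where the value was 0.35 ± 0.26 (adjusted p = 0.38), the fit of 6 libraries, and leaving out the second or the third 10-week control or the third 10-week IUGR library. Plxnb2, which drew the most counts in this family, was at -0.02 ± 0.11 (adjusted p = 0.9).

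At 10 weeks the ligands Slit2 and Slit3 were lower and the receptor Robo2 was higher in IUGR islets. Slit2 measured 14.5, 19.1 and 13.6 CPM in control and 19.7, 21.0 and 20.6 CPM in IUGR islets at 2 weeks, and 5.39, 8.75 and 6.79 CPM in control and 2.81, 2.14 and 2.94 CPM in IUGR islets at 10 weeks. Slit3 measured 39.1, 45.8 and 33.7 CPM in control and 63.2, 64.4 and 42.2 CPM in IUGR islets at 2 weeks, and 18.3, 34.1 and 26.5 CPM in control and 11.0, 6.18 and 9.44 CPM in IUGR islets at 10 weeks. For both ligands the 10-week IUGR libraries lay below all others, with differences from control of -1.41 ± 0.20 (adjusted p = 0.0016) and -1.57 ± 0.27 (adjusted p = 0.0032). Robo2 measured 49.5, 69.4 and 101 CPM in control and 83.1, 82.5 and 84.0 CPM in IUGR islets at 2 weeks, and 174, 124 and 130.2 CPM in control and 272, 251 and 272 CPM in IUGR islets at 10 weeks. The 10-week IUGR libraries were the highest, at 0.89 ± 0.22 (adjusted p = 0.013), a call that was lost without the third 10-week control (adjusted p = 0.054) and with the acinar covariate (0.70 ± 0.58, adjusted p = 0.45). Slit1 at 0.66 ± 0.27 (adjusted p = 0.092) and Robo1 at 0.44 ± 0.18 (adjusted p = 0.086) were above 0 but not called.

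Netrin-1 (Ntn1) had the largest decrease of the guidance genes at 10 weeks. It measured 43.1, 23.6 and 18.1 CPM in control and 14.2, 11.97 and 12.1 CPM in IUGR islets at 2 weeks, and 9.85, 9.66 and 13.9 CPM in control and 0.640, 1.34 and 0.964 CPM in IUGR islets at 10 weeks. The 10-week IUGR libraries lay far below every other library, with a difference from control of -3.49 ± 0.36 (adjusted p = 0.00054); with the acinar covariate it was -2.27 ± 0.63 (adjusted p = 0.049). Unc5b and Unc5c, netrin receptors that drew the most counts in this family after Ntn1, were at 0.03 ± 0.22 (adjusted p = 0.93) and 0.32 ± 0.30 (adjusted p = 0.46), and their groups overlapped.

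**Figure D3:**
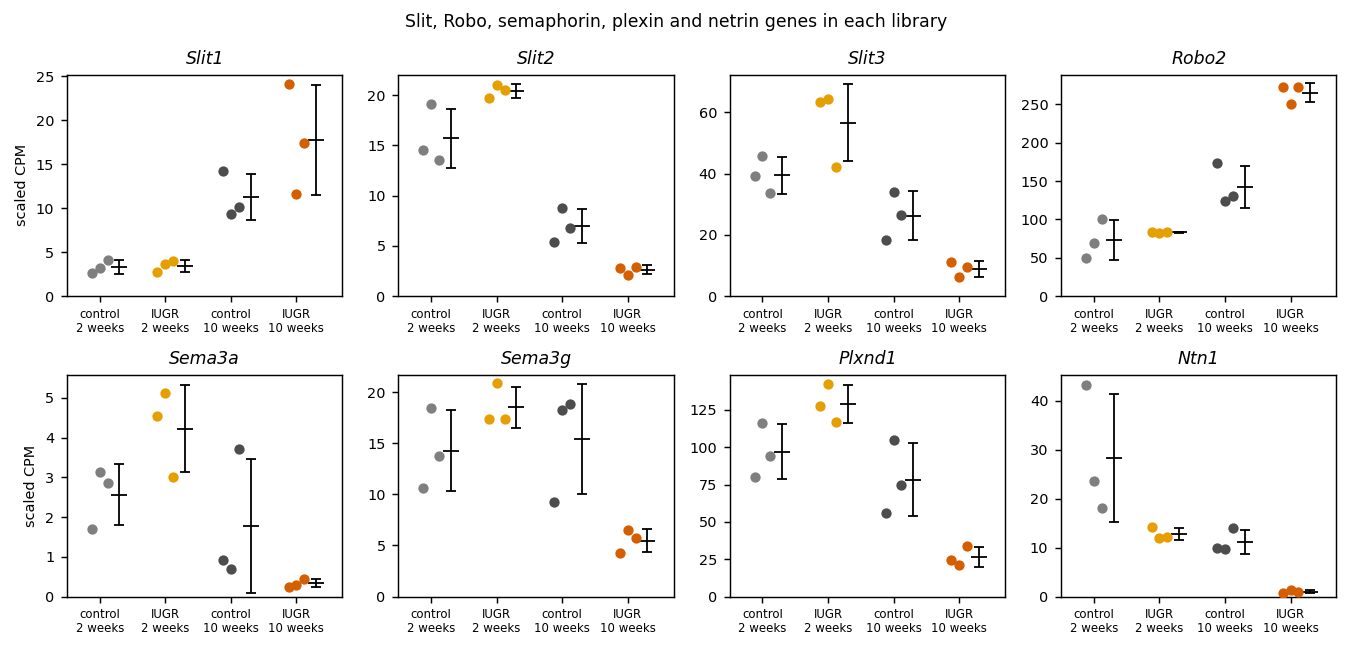
Scaled CPM in each library for Slit1, Slit2, Slit3 and Robo2 (top) and Sema3a, Sema3g, Plxnd1 and Ntn1 (bottom); dots are libraries and the black bar is the group mean ± SD (n = 3), with y axes that start at 0 and differ between genes. Slit1 and Robo2 are higher at 10 than at 2 weeks, while Slit2, Slit3, Sema3g, Plxnd1 and Ntn1 are lowest in 10-week IUGR islets.

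The lower genes moved beside markers of other cells. The summed mesenchymal and pericyte list was 1162 to 2189 CPM in controls and 525 to 721 CPM in IUGR islets at 10 weeks. Its largest member was Col3a1, at 483 to 1084 CPM and 191 to 244 CPM. Rgs5 (40.2 to 53.8 and 46.8 to 62.3 CPM) and Cspg4 (20.1 to 27.8 and 18.0 to 30.6 CPM) overlapped between the groups. Of the 14 tested genes of this list, 9 were lower and 5 were not called. The summed endothelial list was 671 to 1142 CPM in controls and 455 to 621 CPM in IUGR islets. None of the markers found was at 0 in all libraries. The neural and Schwann list had 7 of 14 genes lower and 1 higher at 10 weeks, and its sum overlapped between the groups (75.9 to 120.2 CPM in controls, 82.6 to 100.7 CPM in IUGR islets). The macrophage list had 2 of 10 genes lower, near the 15.5% of all transcripts that were lower at this age. Among the genes that were higher with IUGR, 6 of 13 tested beta cell markers were higher and none lower, where 12.4% of all transcripts were higher. The part of these cells in the guidance results was not tested. With the acinar level as a covariate, 17 guidance genes other than Epha5 were called (16 lower, 1 higher; 27.9%, against 9.35% of all transcripts), 11 of the 24 calls were lost and Sema3c changed sign.

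The covariate moved called genes both ways. Of the 24, 14 moved away from 0 by over 1.5 times in fold, 5 (Ephb3, Efna4, Sema3a, Sema3c and Ntn1) moved towards 0 or past it by as much, and 5 stayed within that range. Farther from 0 and still called were Epha2 at -2.41, Epha3 at -3.13, Efnb2, Nrp1 at -1.46, Plxnb3 and Plxnd1 at -3.002. The semaphorins among them were Sema3f at -1.75 (from -0.74), Sema3g at -2.21 and Sema6a at -2.45. The Slit ligands were at -2.24 (Slit2) and -2.61 (Slit3). Epha1, Sema3b at -2.31 ± 0.68 (adjusted p = 0.058) and netrin-4 (Ntn4) at -1.84 ± 0.54 (adjusted p = 0.058), from -0.83, moved away from 0 while losing the call. Plxna2 at -1.23 ± 0.47 (adjusted p = 0.11), from -0.81, and Plxnb1 at -0.99 ± 0.41 (adjusted p = 0.14), from -0.64, lost it too.

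**Figure D4:**
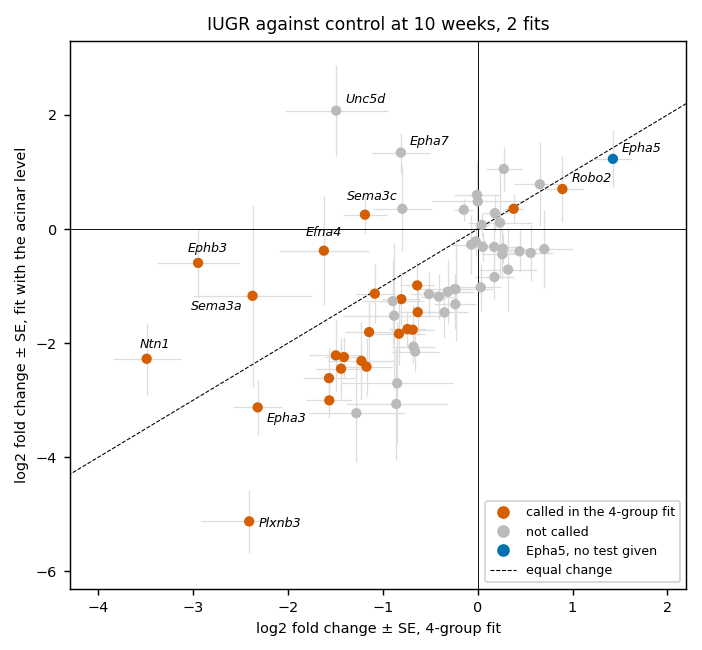
Log2 fold change ± SE between IUGR and control islets at 10 weeks in the fit of 4 groups (x axis) and in the same fit with the acinar level of each library as a covariate (y axis), for the 62 tested guidance genes; the dashed line marks equal values. Epha5 is at 1.43 and 1.23, Ntn1 at -3.49 and -2.27, and Sema3c, Epha7 and Unc5d cross from below to above 0.

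The effect of IUGR differed between the ages for 21 of 61 guidance genes other than Epha5, by a test of the interaction. The difference of the effects was negative for 20 and positive for 1 (Plxna3), 34.4% of the genes, against 14.3% of all transcripts (3.97% positive, 10.4% negative), with a median of -0.57 against 0.00. Because the interaction compares the same 12 libraries either way, it is also the difference of the age effect between IUGR and control islets. The most negative were Sema3a at -3.09 ± 0.81 (adjusted p = 0.028), Epha3 at -2.83 ± 0.34 (adjusted p = 0.0018) and Plxnb3 at -2.53 ± 0.66 (adjusted p = 0.027). Of these, Epha3 was called under all 21 alternatives. The Sema3a call was lost under 8, among them leaving out the first or the third 2-week control, the first or the second 2-week IUGR library, or the first or the second 10-week IUGR library, and its value was -1.91 without the third 10-week control. The Plxnb3 call was lost under 7, all single libraries left out (the third 2-week control, the first or the second 2-week IUGR library, the second 10-week control or any 10-week IUGR library), and its value was -1.78 without the second 10-week control and -3.88 with the acinar covariate. Epha3, like Epha2 at -1.98 ± 0.36 (adjusted p = 0.0071) and Plxnd1 at -1.98 ± 0.34 (adjusted p = 0.0057), lay above control at 2 weeks and below it at 10 weeks, and only the 10-week differences were called. Slit2 was at -1.79 ± 0.27 (adjusted p = 0.0034), Slit3 at -2.09 ± 0.37 (adjusted p = 0.0067) and Ntn1 at -2.35 ± 0.46 (adjusted p = 0.0087). Of the 7 class 3 semaphorins, 5 were negative and called, of which Sema3f and Sema3g were called under all alternatives. Leaving out single libraries gave between 12 and 26 calls, and 10 genes were called under all 21 alternatives. Without the second 2-week IUGR library there were 12 calls, without the third 2-week control 13 and without the third 10-week control 13.

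With age, guidance genes split into a smaller group that rose and a larger one that fell. In control islets, 9 of 62 rose and 20 fell from 2 to 10 weeks (46.8% called, against 32.3% of all transcripts, 17.2% higher and 15.1% lower). In IUGR islets, 10 rose and 40 fell (80.6%, against 56.5% of all transcripts, 27.3% higher and 29.2% lower). The medians were -0.33 and -1.28, against 0.00 over all transcripts in each. The groups did not overlap for 35 of 62 genes in controls (41.1% of all transcripts) and for 53 of 62 in IUGR islets (69.4%). The 2 age comparisons share no libraries. The sign was the same for 56 of 62 genes, no gene was called in opposite directions, and the size of the age effect was larger in IUGR islets for 50 of 62. These counts were not made over all transcripts, so they are not read as particular to guidance genes. Under all 22 alternatives, 15 of the 29 calls in controls and 42 of the 50 in IUGR islets held.

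The genes that rose in both groups were Epha5, Plxnc1, Robo1, Robo2, Sema4a, Sema7a and Slit1. They are 77.8% of the risers in controls and 70.0% of those in IUGR islets, an overlap that was not counted over all transcripts. Plexin C1 (Plxnc1), the receptor of Sema7a, measured 4.29, 6.65 and 7.55 CPM in control and 7.17, 6.29 and 4.33 CPM in IUGR islets at 2 weeks, and 18.6, 18.6 and 12.4 CPM in control and 22.9, 24.8 and 25.5 CPM in IUGR islets at 10 weeks. Every 10-week library lay above every 2-week library, with age effects of 1.42 ± 0.24 (adjusted p = 0.0015) in controls and 2.04 ± 0.24 (adjusted p = 4.5e-05) in IUGR islets. Sema7a, its membrane-anchored ligand, rose by 0.995 ± 0.21 (adjusted p = 0.0054) and 1.18 ± 0.21 (adjusted p = 0.00068), respectively. Slit1, a ligand of Robo receptors, measured 2.63, 3.21 and 4.16 CPM in control and 2.72, 3.71 and 4.04 CPM in IUGR islets at 2 weeks, and 14.2, 9.38 and 10.2 CPM in control and 24.1, 11.7 and 17.4 CPM in IUGR islets at 10 weeks. Its age effects were 1.75 ± 0.28 (adjusted p = 0.0013) and 2.35 ± 0.28 (adjusted p = 5.6e-05), and the ages did not overlap in either group. Robo2 rose by 0.96 ± 0.22 (adjusted p = 0.0071) in controls and 1.67 ± 0.22 (adjusted p = 9.4e-05) in IUGR islets, and Robo1 by 0.90 ± 0.18 (adjusted p = 0.004) and 1.30 ± 0.18 (adjusted p = 0.00014). The call for Robo2 in controls was lost in the fit of 6 libraries alone and without both 10-week controls of high acinar share.

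Sema4a, a membrane-bound semaphorin, measured 11.9, 10.1 and 9.53 CPM in control and 9.24, 9.33 and 9.89 CPM in IUGR islets at 2 weeks, and 20.9, 18.4 and 20.9 CPM in control and 17.3, 19.6 and 17.5 CPM in IUGR islets at 10 weeks. Its age effects of 0.93 ± 0.10 (adjusted p = 0.00021) in controls and 0.93 ± 0.10 (adjusted p = 3e-05) in IUGR islets were close in value, and the difference between them was 0.00 ± 0.14 (adjusted p = 1). Sema6b at 1.16 ± 0.26 (adjusted p = 0.0068) and Sema4f at 0.98 ± 0.26 (adjusted p = 0.017) were called as rising in controls and were at 0.35 ± 0.26 (adjusted p = 0.27) and 0.57 ± 0.25 (adjusted p = 0.076) in IUGR islets; for neither was the difference between the groups called (0.15 and 0.48, adjusted p). The Sema4f call in controls was lost without the first 2-week control, without the second 10-week control and in the fit of 6 libraries. Efna5 was called as rising in IUGR islets, at 0.78 ± 0.30 (adjusted p = 0.042), against 0.57 ± 0.32 (adjusted p = 0.19) in controls, a call lost under 8 of 22 alternatives. The rising genes moved beside the beta cell list, whose sum was 22043 to 38694 CPM at 2 weeks and 94270.4 to 141856 CPM at 10 weeks in controls, and 34054 to 38484 CPM and 176676 to 191229 CPM in IUGR islets. In controls, 5 of 10 macrophage, 4 of 14 neural and Schwann and 5 of 32 acinar genes also rose, and none fell. In IUGR islets these lists had 0, 1 and 0 genes higher and 2, 10 and 20 lower. Over all transcripts, 17.2% rose in controls and 27.3% in IUGR islets. The part of these cells in the result was not tested.

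Of the genes that fell with age, 19 were called in both groups, which is 95.0% of the fallers in controls and 47.5% of those in IUGR islets. The same overlap was not counted over all transcripts. Epha3 fell, with age effects of -1.84 ± 0.23 (adjusted p = 0.00037) in controls and -4.67 ± 0.27 (adjusted p = 1.5e-06) in IUGR islets, the largest fall of the set in IUGR islets. Netrin-3 (Ntn3) had the largest in controls, where it had 42, 66 and 40 counts at 2 weeks and 4 in each library at 10 weeks. In IUGR islets it had 97, 82 and 107 counts at 2 weeks and 3, 3 and 8 at 10 weeks. The 10-week counts are near the 3 counts that a count of 0 allows, so the sizes of its folds are uncertain. Ntn3 measured 1.20, 1.29 and 0.785 CPM in control and 1.37, 1.27 and 1.79 CPM in IUGR islets at 2 weeks, and 0.127, 0.0940 and 0.146 CPM in control and 0.0835, 0.0747 and 0.198 CPM in IUGR islets at 10 weeks. Every 10-week library lay below every 2-week library, with age effects of -3.16 ± 0.39 (adjusted p = 0.00033) and -3.60 ± 0.37 (adjusted p = 2.2e-05). Netrin-1 fell, with age effects of -1.34 ± 0.30 (adjusted p = 0.0073) and -3.69 ± 0.36 (adjusted p = 1.5e-05). Unc5d, a receptor of netrins and Flrt proteins, measured 13.0, 5.28 and 4.41 CPM in control and 2.296, 1.66 and 2.10 CPM in IUGR islets at 2 weeks, and 2.598, 0.705 and 2.70 CPM in control and 0.891, 0.548 and 0.667 CPM in IUGR islets at 10 weeks. It fell, with age effects of -1.93 ± 0.50 (adjusted p = 0.014) in controls and -1.53 ± 0.53 (adjusted p = 0.029) in IUGR islets, and the first 2-week control was far above the other young controls. Without that library the value in controls was -1.29 ± 0.44 (adjusted p = 0.053), no longer called. The call in IUGR islets was lost under 5 of 22 alternatives, among them leaving out the first or the third 2-week or the second or the third 10-week IUGR library. With the acinar covariate the age effect was -2.36 ± 0.30 (adjusted p = 0.00040) in controls and -0.17 ± 0.41 (adjusted p = 0.76) in IUGR islets.

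Of the 4 EphB receptors tested, 3 fell with age in both groups. Over all transcripts, 15.1% fell in controls and 29.2% in IUGR islets. Ephb2 measured 10.0, 12.05 and 11.8 CPM in control and 16.6, 15.6 and 15.2 CPM in IUGR islets at 2 weeks, and 4.37, 5.52 and 5.18 CPM in control and 5.79, 5.36 and 7.02 CPM in IUGR islets at 10 weeks. The ages did not overlap in either group, with -1.17 ± 0.13 (adjusted p = 0.00022) in controls and -1.38 ± 0.13 (adjusted p = 1.2e-05) in IUGR islets. Ephb3 was at -1.55 ± 0.37 (adjusted p = 0.0095) and -3.63 ± 0.43 (adjusted p = 5.1e-05), and Ephb1 at -1.29 ± 0.37 (adjusted p = 0.022) and -2.27 ± 0.37 (adjusted p = 0.00037). The Ephb1 call in controls was lost under 5 of 22 alternatives, among them leaving out the second or the third 2-week control or the first 10-week control. The Ephb3 fall was -2.36 in controls without both 10-week controls of high acinar share, and -2.72 in IUGR islets with the acinar covariate. The ephrin Efnb3 was at -1.31 ± 0.21 (adjusted p = 0.0011) and -1.28 ± 0.20 (adjusted p = 0.00031). All 7 tested ephrins were called with age in IUGR islets, 6 lower and 1 (Efna5) higher, while 2 (Efnb1 and Efnb3) were lower in controls. Of all transcripts, 56.5% were called with age in IUGR islets and 32.3% in controls. The calls of Efna2 in IUGR islets and of Efnb1 in controls were lost under 16 and 13 of 22 alternatives, and that of Efna4 in IUGR islets was lost with the acinar covariate.

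All 7 class 3 semaphorins fell with age in IUGR islets, where 29.2% of all transcripts did. In controls 2 of 7 fell, against 15.1% of all transcripts. These were Sema3c at -0.74 ± 0.23 (adjusted p = 0.029) and Sema3d at -1.21 ± 0.24 (adjusted p = 0.004). In controls the Sema3c call was lost under 4 of 22 alternatives, among them leaving out the first or the third 2-week control or the first 10-week control, and the Sema3d call without both 10-week controls of high acinar share. In IUGR islets they ran from -3.66 ± 0.62 (Sema3a) to -0.94 ± 0.21 (Sema3e). Of the membrane-bound semaphorins, Sema5b at -1.74 ± 0.44 (adjusted p = 0.013) and -3.70 ± 0.48 (adjusted p = 8.9e-05) and Sema6c at -1.81 ± 0.30 (adjusted p = 0.0016) and -2.47 ± 0.32 (adjusted p = 8e-05) fell in both groups. The Sema5b call in controls was lost in the fit of 6 libraries and without both 10-week controls of high acinar share, and its value was -2.33 without the second 10-week control. Slit2 fell in both, with age effects of -1.17 ± 0.19 (adjusted p = 0.0012) and -2.96 ± 0.20 (adjusted p = 2.6e-06), while Slit3 was at -0.59 ± 0.26 (adjusted p = 0.11) in controls and fell in IUGR islets, at -2.67 ± 0.28 (adjusted p = 2.3e-05). In controls the mesenchymal and pericyte list had 10 of 14 genes lower with age and 1 higher, and in IUGR islets 13 lower. Its sum in IUGR islets was 10312 to 12130 CPM at 2 weeks and 525 to 721 CPM at 10 weeks. In IUGR islets 12 of 14 endothelial and 10 of 14 neural and Schwann genes were also lower, and 0 and 1 were higher. Of the acinar list 20 of 32 were lower and of the alpha cell list 5 of 7, with 0 and 1 higher. In controls these 4 lists had, in the same order, 2, 0, 0 and 5 genes lower and 2, 4, 5 and 1 higher. The part of these cells was not tested.

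**Figure D5:**
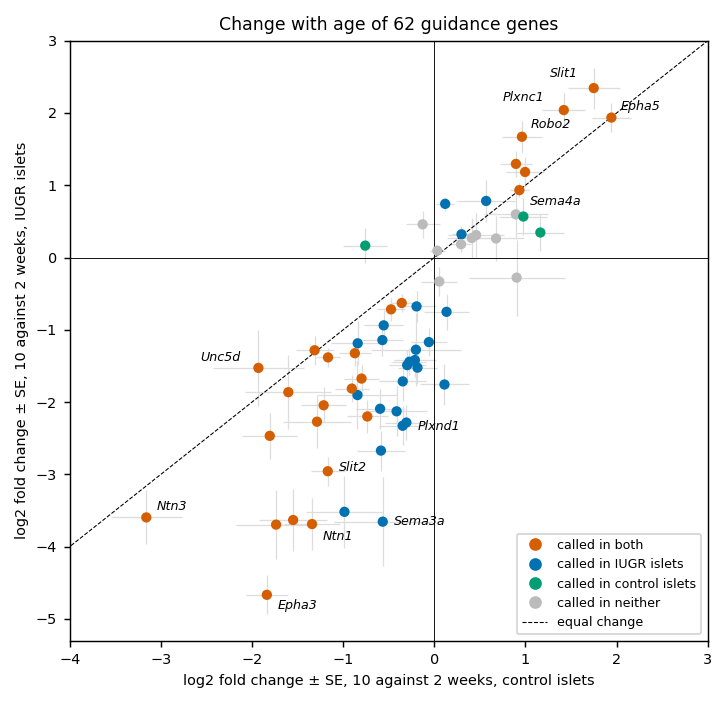
Change with age (log2 fold change ± SE, 10 against 2 weeks) in control islets (x axis) and in IUGR islets (y axis) for the 62 tested guidance genes; orange genes were called in both groups, blue in IUGR islets, green in control islets and grey in neither, and the dashed line marks equal change. Epha5 sits on the dashed line at 1.94, Slit1 and Plxnc1 above it, and most falling genes lie below it.

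Called in none of the 5 comparisons were 8 genes, among them the semaphorin receptor Plxnb2 and the netrin receptor Unc5c. Plxnb2 was 112 to 117 CPM in 2-week controls and 136 to 142 CPM in 10-week controls, which did not overlap, with an age effect of 0.29 ± 0.11 (adjusted p = 0.056). Unc5c was 4.18 to 7.59 CPM in 2-week controls and 8.02 to 9.43 CPM in 10-week controls, with 0.46 ± 0.30 (adjusted p = 0.26). The others were Epha8, Ephb6, Robo3, Sema4b, Sema4d and Unc5a.

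A list of 65 further genes of guidance signalling (co-receptors, adhesion partners, adaptors and GTPase regulators), of which 63 were tested and 1 (Robo4) is also in the endothelial list, was read for the same comparisons. At 2 weeks, 3 were higher in IUGR islets and none lower (4.76%, against 3.88% of all transcripts): cofilin (Cfl1) at 0.51 ± 0.12 (adjusted p = 0.048), the GTPase Cdc42 at 0.35 ± 0.08 (adjusted p = 0.046) and Rasa1 at 0.33 ± 0.07 (adjusted p = 0.046). At 10 weeks, 3 were higher and 17 lower (31.7%, against 27.9%). The largest on each side were the adhesion molecule Nrcam at 1.05 ± 0.19 (adjusted p = 0.004) and its relative Chl1 at -2.18 ± 0.32 (adjusted p = 0.0017). Rgma, a ligand of neogenin, was at -2.12 ± 0.43 (adjusted p = 0.0063) and Flrt2, a ligand of Unc5 receptors, at -2.09 ± 0.28 (adjusted p = 0.0014). The IUGR effect differed between ages for 20 of 63, all of them more negative at 10 weeks (31.7%, against 14.3% of all transcripts), with contactin-2 (Cntn2) at -3.32 ± 0.57 (adjusted p = 0.0057) and the semaphorin mediator Dpysl3 at -3.01 ± 0.45 (adjusted p = 0.0035).

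With age, 6 of the 63 rose and 12 fell in controls, and 8 rose and 36 fell in IUGR islets. These are 28.6% and 69.8% of the list, against 32.3% and 56.5% of all transcripts. The netrin receptor Dcc had 6, 33 and 9 counts in 2-week controls and 26, 22 and 36 in 2-week IUGR islets. At 10 weeks it had 0, 2 and 1 counts in controls and 2 in each IUGR library, within the 3 counts that a count of 0 allows. It was called as lower with age in both groups, and no fold is given for it. Nrcam rose by 1.04 ± 0.19 (adjusted p = 0.0025) and 1.82 ± 0.19 (adjusted p = 2.5e-05), and the collapsin response mediators Dpysl5 and Crmp1 rose by 1.59 ± 0.24 and 1.54 ± 0.20 in controls and by 1.496 ± 0.23 and 1.30 ± 0.20 in IUGR islets. The Slit-Robo GTPase-activating protein Srgap3 fell in controls, at -1.59 ± 0.35 (adjusted p = 0.0064). The median over the list was 0.01 in controls and -0.45 in IUGR islets.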

How the data were processed

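Ribosome-depleted total RNA from islets isolated with collagenase and a density gradient was sequenced in 12 libraries, from stranded libraries per the labels' protocols. The authors deposited 1 table of raw read counts per transcript, with gene symbols; per the submitters' processing notes they used TopHat2 2.0.9, bedtools and the builds rn5 and mm9. The sources used here do not give which build each step used or how reads were assigned to transcripts or strands, so transcripts of 1 gene, close paralogs and overlapping genes can share reads.

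Counts were filtered (filterByExpr) and scaled (TMM), and the 4 groups were fitted together with edgeR 4.0.16 in R 4.3.3 (robust quasi-likelihood fit) over 20733 transcripts, with Benjamini-Hochberg adjustment over all of them. Standard errors are the fold change divided by the square root of F, or, where F was under 0.01, from the information matrix of the fit. The script was tested on simulated data. The members and lists were chosen with earlier results of these data known. Genes named are Epha5, all EphA receptors and ephrin-A ligands tested, up to 12 called genes in each direction and comparison with the largest change, the 3 of highest mean CPM in each family, and up to 4 of the wider pathway list in each direction; others are named where a sentence lists a count or a test. Alternatives were RLE scaling, leaving out the 20 most abundant transcripts with the acinar list, no filter, an adjusted p under 0.1, a replicate block, the acinar level as a covariate, a fit of 6 libraries, 1 transcript per symbol, leaving out both 10-week controls with an acinar share above 40%, leaving out each library, and DESeq2 1.42.0. Leaving out both 10-week controls of high acinar share keeps only the second 10-week control. Calls held or lost at 10 weeks in that fit rest on that library for the control group. RefSeq promoters (GRCr8) were read for sequence only, and no coordinates were converted between builds.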

Additional observations from a re-analysis of the deposited data

Results flagged for a closer look

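For 21 guidance genes the effect of IUGR differed between 10 and 2 weeks by edgeR's quasi-likelihood test of the interaction (12 libraries, adjusted p under 0.05 over all transcripts). The values are differences of log2 fold changes, 10 minus 2 weeks. Among Eph receptors and ephrins they were -2.83 for Epha3, -2.08 for Ephb3, -1.98 for Epha2, -1.34 for Efnb2 and -1.19 for Efna1. Among semaphorins they were -3.09 for Sema3a, -1.87 for Sema3g, -1.71 for Sema3b, -1.50 for Sema6a, -1.46 for Sema3c, -1.17 for Sema3f and -0.91 for Sema5a. Among their receptors they were -2.53 for Plxnb3, -1.98 for Plxnd1, -1.21 for Nrp2, -1.11 for Nrp1 and 0.62 for Plxna3. For the remaining ligands they were -2.35 for Ntn1, -2.09 for Slit3, -1.79 for Slit2 and -1.37 for Ntn4. Of the 21, 10 were called under all 21 alternatives: Efnb2, Epha2, Epha3, Ntn1, Plxna3, Plxnd1, Sema3f, Sema3g, Slit2 and Slit3. The others lost the call under 1 (Efna1, Sema3c), 4 (Nrp1), 6 (Sema6a), 7 (Plxnb3), 8 (Sema3a, Nrp2), 9 (Sema3b, Ntn4), 10 (Ephb3) or 11 (Sema5a) of them. In these libraries a negative difference was called for 12 of 14 endothelial, 11 of 14 mesenchymal and pericyte and 10 of 14 neural and Schwann genes. It was called for 4 of 10 macrophage and 9 of 32 acinar genes, against 10.4% of all transcripts. No tested beta, alpha, delta, PP or ductal marker was called in this comparison. The part of those cells in these values was not tested.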

How the results depend on the processing

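Under the alternatives run, the count of guidance genes other than Epha5 called at 2 weeks was 0 in the 4-group fit, against 3.88% of all transcripts. It was 7 at an adjusted p under 0.1 (11.5%, against 14.6% of all transcripts) and 7 with DESeq2 (11.7%, against 15.9%). With RLE size factors it was 1 (1.64%, against 4.12%). It was also 1 with the acinar list and the 20 transcripts of highest count removed (1.64%, against 4.39%). Leaving out single libraries gave 0 to 4 (up to 6.56%, against up to 11.2%). At 10 weeks the 24 calls (39.3%, against 27.9%) became 15 in a fit of the 6 libraries compared (25.9%, against 18.1%). With single libraries left out there were 13 to 30 (21.3% to 49.2%, against 14.1% to 33.3%). The 21 interaction calls (34.4%, against 14.3%) ranged from 12 to 26 with single libraries left out (19.7% to 42.6%, against 8.37% to 23.6%). With age in controls, 29 calls (46.8%, against 32.3%) became 18 in a fit of 6 libraries (29.0%, against 17.5%). With age in IUGR islets, 50 calls (80.6%, against 56.5%) ranged from 45 to 52 over all alternatives run (72.6% to 83.9%, against 39.5% to 63.8%). Sema3c at 10 weeks reversed to 0.25 with the acinar level as a covariate, and the same covariate moved Epha5 at 10 weeks from 1.43 to 1.23; the cause was not tested. That covariate differs between the groups and leaves wider errors. Replicate numbers are shared between groups. Of 18 same-numbered pairs of libraries, 8 had deviations that correlated above 0.1, and 7 of 12 libraries correlated best with their own number. Correlations ran from -0.137 to 0.478 in same-numbered pairs and from -0.457 to 0.312 in the others. These values do not settle whether the numbers mark a pairing, and the main fit did not use them as one. With the number as a replicate block there were 2 calls at 2 weeks, 26 at 10 weeks, 22 for the interaction, 31 with age in controls and 49 with age in IUGR islets. Low genes such as Efna2, Ntn5 and Robo3, all below 1 CPM, had standard errors of 0.41 to 0.74. Differences larger than their own standard error also went uncalled at this depth, as for Efna2 between IUGR and control islets at 10 weeks.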
